A study of Mus musculus with 41 samples.

Results

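*Il10* and *Il4ra* were followed as the anti-inflammatory signalling genes of a qPCR panel, and were chosen by name as 2 of the 54 target genes in the Ct table used here, which are called the panel. Both were measured in tissue of all 41 mice, each of which has 1 Ct (threshold cycle) per gene. The mice were female NSG mice. Mesh was placed in pockets between the lower abdominal skin and the fascia. P mice received an electrospun PLACL nanomesh (P nano-mesh in the labels), P+eMSC mice received the same mesh with eMSC pipetted on top, and sham mice served as the controls. The eMSC are human endometrial mesenchymal stem/stromal cells, purified by the surface marker SUSD2 and labelled with mCherry. Tissue was examined after 1 week in 7 sham, 6 P and 7 P+eMSC mice, and after 6 weeks in 6 sham, 8 P and 7 P+eMSC mice. Different mice were taken at each time, and some had been reused from an earlier study. NSG mice lack T, B and NK cells and the common gamma chain of cytokine receptors, which limits all 6 groups as a model of the reaction to a mesh.

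IL-10, the product of *Il10*, is secreted by macrophages and other leukocytes and restrains their output of inflammatory cytokines and chemokines through STAT3. *Il4ra* encodes the receptor chain that binds IL-4 and, together with *Il13ra1*, IL-13. It signals through STAT6 and is best known for the alternative (M2) activation of macrophages during wound repair and the reaction to implants. In mice without the common gamma chain, the receptor made with that chain is lost, while the receptor made with *Il13ra1* remains. In the GRCm38.p6 annotation, *Il10* (gene ID 16153) spans 131019845 to 131024970 on chromosome 1, and *Il4ra* (gene ID 16190) spans 125552271 to 125579474 on chromosome 7.

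Each level below is the 18S rRNA (*Rn18s*) Ct minus the Ct of the gene in the same mouse. It is a log2 scale on which a value closer to 0 is a higher level and 1 unit is a doubling if amplification was complete. The 18S Ct ranged from 6.20 to 7.79, with a median of 6.82. *Il10* had a Ct in 38 mice, from 17.93 to 25.98, and *Il4ra* had one in 41 mice, from 11.7 to 24.4. The tissue was bulk skin, so fewer cells of a type and less RNA per cell cannot be told apart. The collagens *Col1a1*, *Col3a1*, *Col6a1*, *Col6a2* and *Col6a3*, the leukocyte markers *Ccr1*, *Ccr2*, *Ccr7* and *Mrc1*, and the epithelial *Cdh1* all had a Ct in nearly every mouse.

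Some mice and 1 row of the Ct table stood apart. P mouse 52 at 6 weeks had no Ct in 31 of the 54 genes, out of 40 such gaps in the whole table, and P+eMSC mouse 78 at 1 week had none in 6. P mouse 2356 is labelled 6 weeks. Its deposited fold changes matched a calibration against the 1 week sham mice in 49 genes and against the 6 week sham mice in 1, and it was kept as labelled. In the *Il10* row, the deposited fold changes of all 6 sham mice at 6 weeks were reached with the 18S Ct of the mouse itself and the *Il10* Ct of the column to its left. The last of these columns, sham mouse 123, holds no *Il10* Ct. The sham *Il10* Ct values from mouse 2354 to mouse 122 may therefore belong to the next mouse, which would leave mouse 2354 without one. In P, the fold changes matched the own Ct and own 18S of each mouse, 6 at 1 week and 7 at 6 weeks. No P+eMSC mouse and no sham mouse at 1 week matched its own *Il10* Ct. The fold changes of 1 P+eMSC mouse at 1 week, 5 P+eMSC mice at 6 weeks and 5 sham mice at 1 week were reached with the Ct and 18S of 1 other mouse. For P+eMSC mice 529, 2399, 2351 and 2317 at 6 weeks, these were P+eMSC mice 61, 532, 2350 and 2309 of 1 week. For P+eMSC mouse 2400 at 6 weeks it was sham mouse 2269 of 1 week. Another 4 P+eMSC mice at 1 week matched none, and the rest had no fold change. The *Il10* Ct and 18S Ct of P+eMSC mice 10, 61, 532, 2350 and 2309 at 1 week thus did occur together, under other mice. No fold change was reached with the *Il10* Ct of P+eMSC mouse 2358 at 1 week or of any P+eMSC mouse at 6 weeks. Those values could not be checked in this way. *Il10* is given as deposited, and for some results again with those sham values moved by 1 column. *Il4ra* had no such problem, as 40 of its 41 deposited fold changes lay within 0.001 (log2) of those calculated, with mouse 2356 as the exception.

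*Il10*, the secreted cytokine of the pair, varied between mice of the same group, as did other panel genes. At 1 week its SD was 2.60 in sham, 1.98 in P and 1.23 in P+eMSC. The median SD of the panel genes was 1.93, 1.79 and 1.87. At 6 weeks the *Il10* SD was 2.39, 1.14 and 2.22 in these groups. The panel median SD was then 1.11, 2.56 (1.47 without mouse 52) and 1.57. In sham at 1 week its level ran from -19.21 in mouse 125 to -11.38 in mouse 2269, with a median of -16.69 (mean -15.72 ± 2.60, SD, n = 7). In P at 1 week it ran from -17.06 to -12.78, with a median of -13.48 (mean -14.42 ± 1.98, SD, n = 6). Of the 6 P mice, 4 lay between -13.91 and -12.78, and the other two lay near the sham median at -16.78 and -17.06. In P+eMSC at 1 week *Il10* ran from -17.28 to -13.88, with a median of -15.60 (mean -15.41 ± 1.23, SD, n = 6). Mouse 78 had no *Il10* Ct. All 3 groups overlapped, and sham held both the highest and the lowest mouse of this week.

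At 6 weeks, *Il10* in the sham mice was -11.71 in mouse 2277, -12.95 in mouse 408, -16.58 in mouse 401, -15.09 in mouse 2346 and -17.37 in mouse 122, with none in mouse 123 (mean -14.74 ± 2.39, SD, n = 5). In P it ran from -17.24 in mouse 53 to -13.54 in mouse 2356, with a median of -15.37 (mean -15.47 ± 1.14, SD, n = 7). Mouse 52 had no *Il10* Ct. In P+eMSC it ran from -17.18 to -11.51, with a median of -14.59 (mean -14.80 ± 2.22, SD, n = 7). The P mice all lay within the range of the sham mice. With the sham values moved by 1 column, sham was -15.79 ± 2.85 (SD, n = 6) at 1 week and -14.88 ± 2.18 (SD, n = 6) at 6 weeks.

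*Il4ra*, the receptor chain, had closely similar medians in all 6 groups. In sham at 1 week it ran from -10.24 to -5.38, with a median of -8.09 (mean -7.98 ± 1.77, SD, n = 7). In P at 1 week it ran from -9.84 to -5.71, with a median of -8.28 (mean -8.08 ± 1.56, SD, n = 6). In P+eMSC at 1 week it ran from -11.42 in mouse 78 to -5.83 in mouse 2358, with a median of -8.35 (mean -8.43 ± 1.81, SD, n = 7). The 3 groups at 1 week lay on top of each other.

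At 6 weeks, *Il4ra* in sham ran from -8.48 to -5.87, with a median of -7.80 (mean -7.60 ± 0.889, SD, n = 6). The sham mice were the tightest group for this gene, apart from mouse 401 at -5.87. In P it ran from -16.61 in mouse 52 to -6.33 in mouse 2356, with a median of -8.32 (mean -9.35 ± 3.16, SD, n = 8). Without mouse 52 the P mean was -8.31 ± 1.26 (SD, n = 7). In P+eMSC it ran from -9.27 to -4.74, with a median of -7.40 (mean -7.44 ± 1.43, SD, n = 7). The P mice extended below the lowest sham mouse, and mouse 2351 of P+eMSC lay above all other mice.

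**Figure D1:**
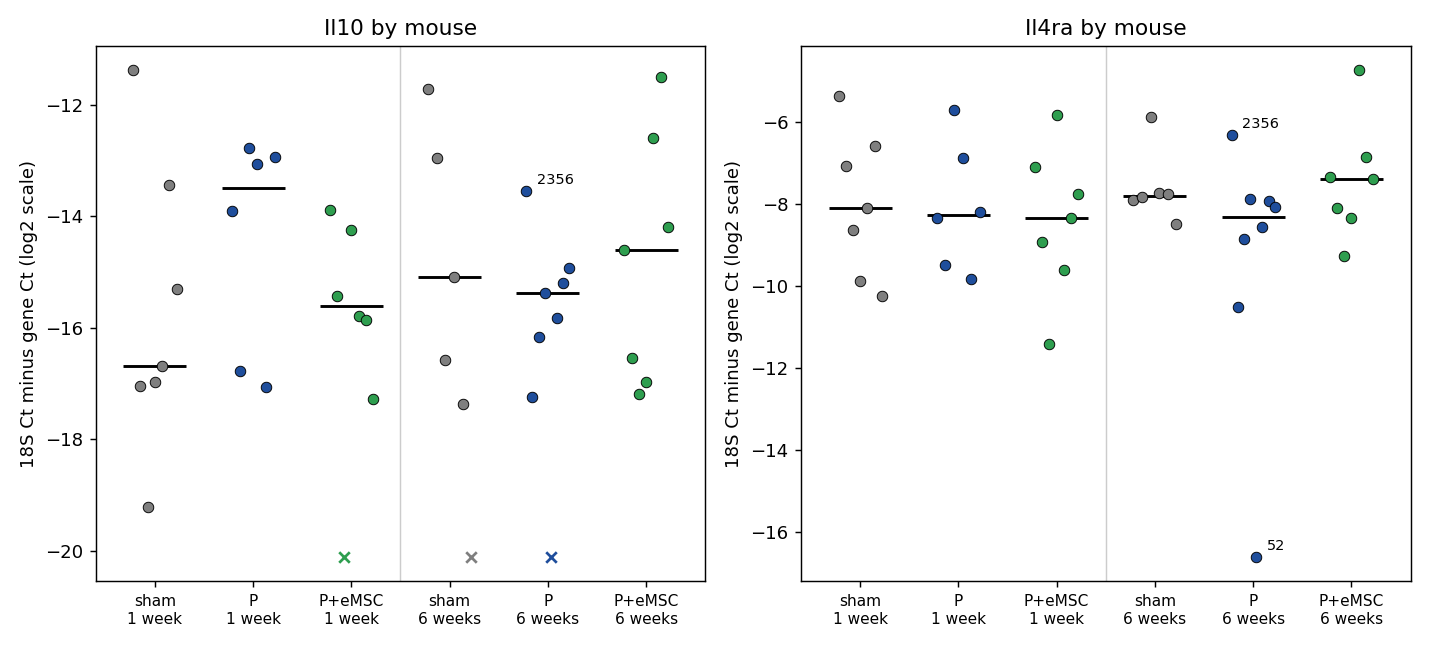
Level of *Il10* (left) and *Il4ra* (right) in each mouse, as 18S Ct minus gene Ct on a log2 scale, in 6 groups. Points are mice, horizontal lines are group medians, and crosses under the *Il10* points mark the 3 mice with no *Il10* Ct, placed below the lowest level for display only. *Il10* medians run from -16.69 to -13.48 with overlapping mice in every group, and *Il4ra* medians stay between -8.35 and -7.40, with mouse 52 alone at -16.61.

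Ordered by median, *Il10* was highest in P at 1 week, followed by P+eMSC at 6 weeks, sham at 6 weeks, P at 6 weeks, P+eMSC at 1 week and sham at 1 week. None of the 5 pairs of neighbours in this order differed beyond their spread (exact two-sided Mann-Whitney U test, adjusted p over the 5 pairs = 0.945 in each). *Il4ra* was highest in P+eMSC at 6 weeks, followed by sham at 6 weeks, sham at 1 week, P at 1 week, P at 6 weeks and P+eMSC at 1 week. Its neighbours did not differ beyond their spread either (adjusted p = 1 in each of the 5 pairs). Neighbours were paired by the medians of the same values, so these tests cannot show whether the groups are alike. The highest and lowest groups of each gene are compared below.

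The effect of the mesh alone was read from P against sham of the same week. At 1 week, *Il10* was above the mean of the sham mice in 4 of 6 P mice, at 0.396 to 7.67 times that mean. The Hodges-Lehmann shift of P from sham was 1.77 log2 (3.42-fold, exact 95% interval -1.68 to 4.11). It did not pass the exact Mann-Whitney U test (p = 0.445, adjusted over the 54 genes 0.873). Leaving out 1 mouse at a time gave 0.45 (without sham mouse 125, the lowest) to 2.44 (without P mouse 2355). It was 0.23 within the 2 series of animal numbers, and 1.12 against the panel median, that is with the median Ct of the panel in each mouse as the reference and not 18S. *Il4ra* was above the sham mean in 2 of 6 P mice, and its shift was -0.04 log2 (interval -2.76 to 2.04, exact p = 1, adjusted p = 1). No panel gene was called at an adjusted p below 0.05 in this comparison (0% of 54), and 2 genes (3.7%) had an unadjusted p below 0.05. With 6 mice against 7, a single gene that separated the groups completely would still have an adjusted p of 0.0629, so this comparison could call none on its own. The same holds for P+eMSC against sham at 6 weeks, P+eMSC against P at 1 week and 6 weeks against 1 week in sham. *Il10*, which some mice lacked, had 6 values against 7 or fewer in all comparisons except P+eMSC against P at 6 weeks. In those, *Il10* on its own could not have been called.

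At 6 weeks, 6 of 7 P mice with an *Il10* Ct lay below the sham mean, at 0.177 to 2.29 times that mean. The *Il10* shift was -0.59 log2 (interval -3.49 to 1.65, exact p = 0.755, adjusted p = 0.886). For *Il4ra*, 7 of 8 P mice lay below the sham mean, the exception being mouse 2356. Its shift was -0.70 log2 (1.62-fold lower in P, interval -2.78 to 0.03, exact p = 0.0593, adjusted p = 0.213). This was the smallest p of either gene in any comparison. Without mouse 2356, whose week is in doubt, the *Il4ra* shift was -0.88 with an exact p of 0.0140 and an adjusted p of 0.0909. Without mice 52 and 2356 together it was -0.70 (exact p = 0.0260, adjusted p = 0.128), without mouse 52 alone -0.35 (exact p = 0.101, adjusted p = 0.322), and without the high sham mouse 401 -0.33 (exact p = 0.127, adjusted p = 0.405). The exact p was also below 0.05 without sham mouse 123 (0.0295, adjusted p = 0.126) and within the 2 series of animal numbers (0.0397, adjusted p = 0.165).

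The shift of *Il4ra* at 6 weeks was shared with most of the panel. In the same comparison 43 of 54 genes were lower in P, with a median shift of -0.83, and 23 genes had a larger (less negative) shift than *Il4ra*. At an adjusted p below 0.05, 2 genes (3.7%) were called, and 12 (22.2%) had an unadjusted p below 0.05. When each mouse was set against its own panel median, and not against 18S, the shifts turned to 0.48 for *Il4ra* (exact p = 0.228) and 0.54 for *Il10* (exact p = 0.755).

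P+eMSC against sham asked how far tissue around the mesh with cells stood from sham. At 1 week, 3 of 6 P+eMSC mice were above the sham mean for *Il10*, at 0.340 to 3.59 times it, and 3 of 7 were above it for *Il4ra*. The shifts were 0.98 log2 for *Il10* (interval -2.50 to 3.10, exact p = 0.836, adjusted p = 1) and -0.45 for *Il4ra* (interval -2.77 to 1.89, exact p = 0.710, adjusted p = 1). The direction of *Il10* was not kept. It turned to -0.53 against the panel median, and to -0.13 with undetected values set below the lowest value. It also turned to -0.18 without sham mouse 125. Treating Ct above 25 as undetected gave the same -0.18, as mouse 125 held the only *Il10* Ct above 25. No gene was called at this week (0% of 54, and 0% unadjusted). At 6 weeks, 4 of 7 mice were above the sham mean for each gene. The shifts were 0.19 log2 for *Il10* (interval -3.59 to 3.18, exact p = 0.876, adjusted p = 1) and 0.35 for *Il4ra* (interval -1.46 to 1.14, exact p = 0.836, adjusted p = 1). Here too no gene was called (0% of 54, and 0% unadjusted).

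P+eMSC against P asked what the cells added to the mesh. At 1 week, *Il10* was lower with cells by a shift of -1.25 log2 (2.38-fold, interval -3.00 to 1.35), which did not pass the test (exact p = 0.310, adjusted p = 0.981). *Il4ra* had a shift of -0.14 (interval -2.75 to 2.08, exact p = 0.836, adjusted p = 0.981). No gene was called (0% of 54, and 0% unadjusted). Against the panel median, *Il10* had a shift of -1.39 with an exact p of 0.0411, and an adjusted p of 0.441.

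At 6 weeks the shifts of both genes from P to P+eMSC were above 0 against 18S and below 0 against the panel median, and none passed the test. *Il4ra* had a shift of 1.04 log2 (2.06-fold, interval -0.48 to 3.66, exact p = 0.232, adjusted p = 0.432). *Il10* had a shift of 0.69 (1.62-fold, interval -1.62 to 3.24, exact p = 0.620, adjusted p = 0.744). Here 47 of 54 genes were higher in P+eMSC, with a median shift of 1.15, and both genes lay below that median. No gene was called at an adjusted p below 0.05 (0%), and 10 (18.5%) had an unadjusted p below 0.05, neither member among them. Against the panel median the shifts turned to -0.63 for *Il4ra* (exact p = 0.232) and -0.76 for *Il10* (exact p = 0.0973).

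**Figure D2:**
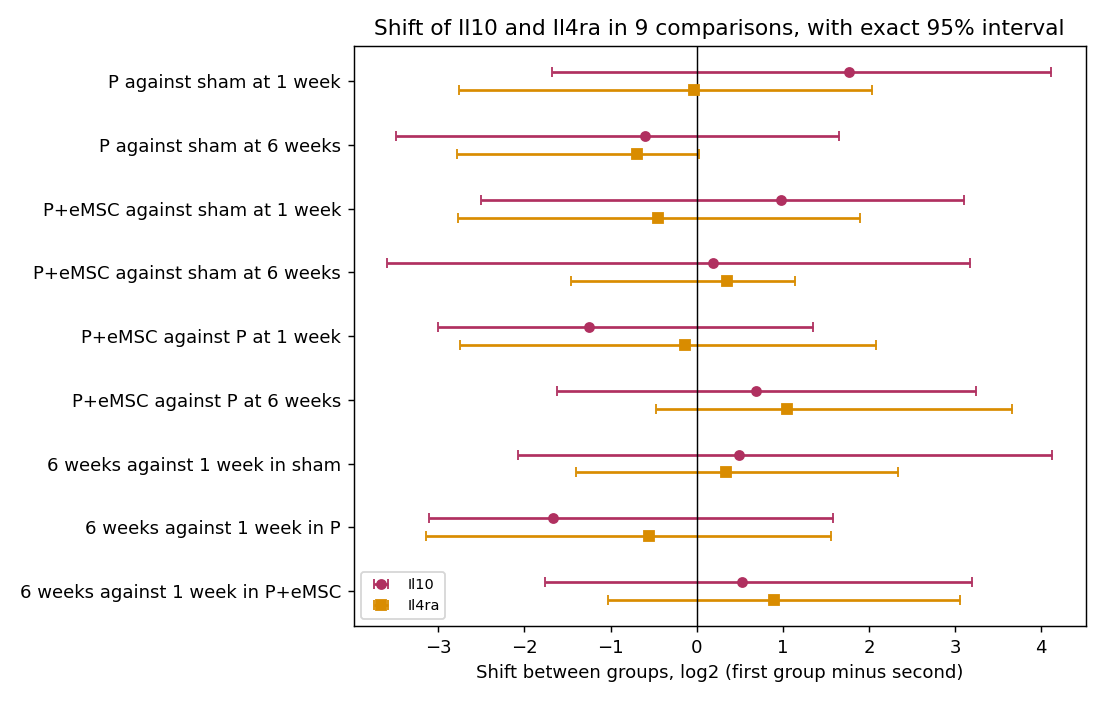
Hodges-Lehmann shift of *Il10* (circles) and *Il4ra* (squares) in the 9 comparisons of 2 groups, in log2 units of 18S Ct minus gene Ct, with bars for the exact 95% interval. All 18 intervals hold 0, with the *Il4ra* interval of P against sham at 6 weeks reaching 0.03 at its upper end.

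Between 1 and 6 weeks, neither gene passed the test within a treatment, and in sham and P+eMSC the shifts of both turned below 0 against the panel median. In sham the shifts were 0.50 log2 for *Il10* (interval -2.08 to 4.13, exact p = 0.530, adjusted p = 0.901) and 0.34 for *Il4ra* (interval -1.40 to 2.34, exact p = 0.628, adjusted p = 0.942). With the sham *Il10* values moved by 1 column, the *Il10* shift was 1.57 (exact p = 0.485, adjusted p = 0.901). In P they were -1.66 for *Il10* (3.17-fold lower at 6 weeks, interval -3.11 to 1.58, exact p = 0.295, adjusted p = 1) and -0.56 for *Il4ra* (interval -3.14 to 1.56, exact p = 0.755, adjusted p = 1). In P+eMSC they were 0.52 for *Il10* (interval -1.76 to 3.20, exact p = 0.731, adjusted p = 0.858) and 0.90 for *Il4ra* (interval -1.03 to 3.06, exact p = 0.383, adjusted p = 0.827). The share of the panel called was 0% in each of these 3 comparisons, and 3.7% in sham and 0% in P and in P+eMSC at an unadjusted p below 0.05.

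Whether a treatment difference changed with time was tested as an interaction in limma over all 6 groups. The difference between P and sham changed from 1 to 6 weeks by -2.03 ± 1.59 log2 (SE) for *Il10* and by -1.65 ± 1.52 for *Il4ra* (limma adjusted p = 0.736 for both). For P+eMSC against P the change was 1.66 ± 1.55 for *Il10* (limma adjusted p = 0.506) and 2.26 ± 1.49 for *Il4ra* (limma adjusted p = 0.485). For P+eMSC against sham the changes were -0.36 ± 1.59 and 0.61 ± 1.51 (limma adjusted p = 0.999 for both). The panel moved the same way, with 54 of 54 genes above 0 for P+eMSC against P (median 1.70) and 4 of 54 above 0 for P against sham (median -1.35). The *Il4ra* interactions against the panel median were 0.06 for P+eMSC against P and 0.03 for P against sham, and those of *Il10* were 0.96 and -1.05. limma compares means, and the *Il4ra* mean of P at 6 weeks was -9.35 with mouse 52 and -8.31 without it. Without 1 mouse at a time, the *Il4ra* interaction was -2.09 to -0.62 for P against sham. It was 1.22 to 2.69 for P+eMSC against P. Those of *Il10* were -2.75 to -1.27 and 1.12 to 2.19. None of the 54 genes was called in an interaction, and none had an unadjusted limma p below 0.05.

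Set among the other panel genes, *Il4ra* was at most 0.40 log2 from the panel median in all 9 comparisons. *Il10* stood over 1 log2 from it in 4 of them. In P against sham at 1 week, 9 of the 54 genes had a larger shift than *Il10*, and in P+eMSC against sham at 1 week 6 did, although *Il10* itself turned to -0.53 there against the panel median. In P+eMSC against P at 1 week, 12 genes had a lower shift. From 1 to 6 weeks in P, 5 genes had a lower one. These places describe the panel and carry no test, and the comparisons share groups with each other.

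**Figure D3:**
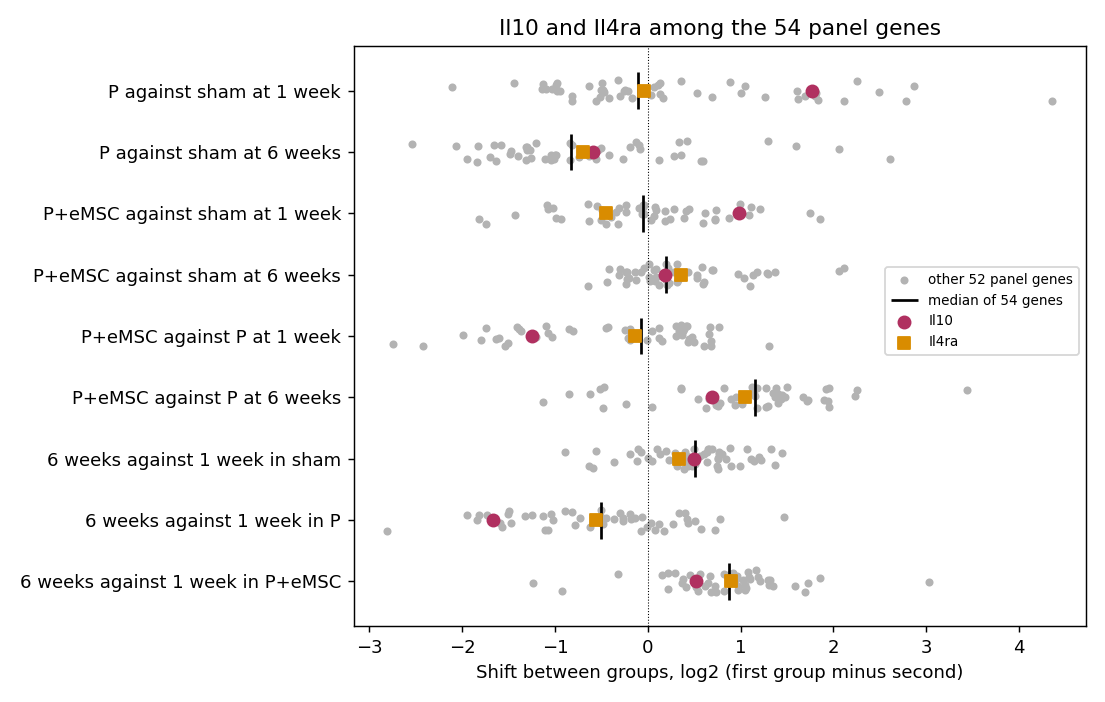
Hodges-Lehmann shift (log2) of each panel gene in the 9 comparisons of 2 groups, with *Il10* as circles, *Il4ra* as squares, the other genes in grey and the median of all 54 genes as a black line. *Il4ra* lies next to the panel median throughout, while *Il10* lies 1.88 above it in P against sham at 1 week and 1.16 below it in 6 weeks against 1 week in P.

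The ratio of *Il10* to *Il4ra* within a mouse (*Il4ra* Ct minus *Il10* Ct, in which 18S cancels) does not depend on the amount of 18S. It is given as a description, since the assays differ. In P at 6 weeks, 7 mice lay between -7.49 and -6.71, with an SD of 0.276. In the other 5 groups the SD was between 1.05 and 2.91. All 52 other panel genes had a larger SD of their ratio to *Il4ra* in P at 6 weeks, with a median over the panel of 1.17. Undetected values were left out, so the SD of *Il10* excludes mouse 52, while genes with a Ct in mouse 52 include it. The SDs are therefore not all over the same mice. The comparison with the panel was looked up after the SD of 0.276 had been seen. With the sham values moved, the sham SD was 1.83 at 1 week and 1.88 at 6 weeks, against 2.04 and 2.91 as deposited.

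**Figure D4:**
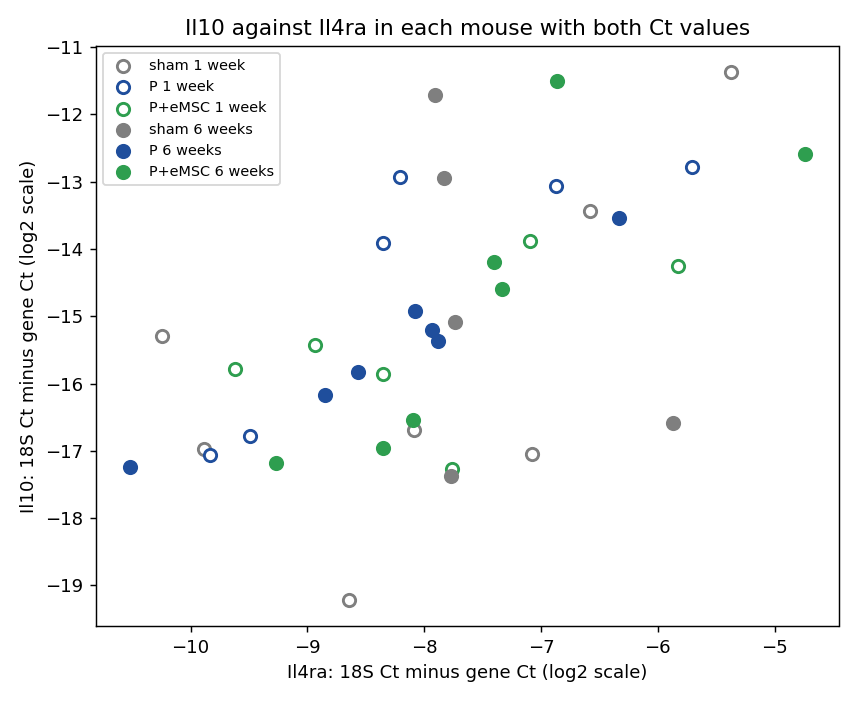
*Il10* level against *Il4ra* level in each of the 38 mice with both Ct values, both as 18S Ct minus gene Ct on a log2 scale. Open circles are 1 week and filled circles 6 weeks. The P mice at 6 weeks lie on a line, and the deposited sham values at 6 weeks show no such order.

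Across the 38 mice, *Il10* and *Il4ra* had a Pearson r of 0.59, given as a description because the mice share groups and each value shares its 18S Ct. It was 0.98 in P at 6 weeks and -0.48 in sham at 6 weeks, where moving the values by 1 column gave 0.52. The panel genes most like *Il10* were *Ccl2*, *Cxcl1* and *Ccl12* (r = 0.78, 0.76 and 0.75 over 38 mice), which are chemokines that draw in monocytes or neutrophils. They stayed at 0.69, 0.68 and 0.64 against the panel median, and the median r of *Il10* over 53 genes was 0.53. With the sham values moved by 1 column, r was 0.86, 0.83 and 0.88 for these genes against 18S. It was then 0.70 for *Il4ra*, and the median over 53 genes was 0.66. Those most like *Il4ra* were *Mrc1*, the macrophage mannose receptor, the collagen chain gene *Col6a2* and the gelatinase gene *Mmp2* (r = 0.96, 0.95 and 0.95 over 41 mice). The median r of *Il4ra* over 53 genes was 0.74 and the lowest 0.41. Without mouse 52 the 3 values were 0.93, 0.91 and 0.91. Against the panel median, with mouse 52 kept, they were 0.44, 0.32 and 0.02, beside a median of 0.23 over 53 genes. The likeness to *Mmp2* was not kept on that scale, and *Ccr1* (0.47) and *Cxcl1* (0.45) were above all 3.

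Of 5 genes listed as responsive to IL-4 and IL-13, 4 were in the Ct table used here. These are *Arg1* (arginase), *Mrc1*, *Ccl11* (an eosinophil chemokine) and *Cdh1* (E-cadherin, also the epithelial marker above). They are not specific to macrophages, and which cells of the bulk tissue held their RNA was not tested. None was called at an adjusted p below 0.05 in any of the 9 comparisons. In P against sham at 6 weeks all 4 were below 0, with a median shift of -1.29 beside -0.83 for all 54 genes. *Ccl11* had the lowest, -1.48 (exact p = 0.00799, adjusted p = 0.0551), and *Arg1* the highest, -0.82 (exact p = 0.491). In P+eMSC against P at 6 weeks all 4 were above 0, with a median shift of 1.55 beside 1.15 for the panel. *Arg1* had the highest at 2.26 (exact p = 0.152) and *Mrc1* the lowest at 1.35 (exact p = 0.121), while *Ccl11* was at 1.73 (exact p = 0.0401, adjusted p = 0.209). These comparisons share the P mice, so the opposite signs are not independent. Against the panel median the list medians were -0.03 and 0.14, with 2 of 4 genes below 0 and 3 of 4 above 0. At 1 week the median shifts of the 4 were -0.17 in P against sham and 0.27 in P+eMSC against P.

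The list of inflammatory genes that IL-10 restrains in macrophages held 15 names, of which *Tnf* and *Tnfa* are the same gene. Of these names, 11 were in the table, and none passed the test in any comparison. In P against sham at 1 week, 10 of 11 were above 0, with a median shift of 1.81 beside -0.10 for all 54 genes and 1.77 for *Il10*. The neutrophil chemokine gene *Cxcl2* had the highest shift, 4.36 (exact p = 0.181), and *Nos2*, the inducible nitric oxide synthase, the lowest, -0.25 (exact p = 0.945). In P+eMSC against P at 1 week, 10 of 11 were below 0, with a median shift of -1.54 beside -0.07 for the panel and -1.25 for *Il10*. In P+eMSC against P at 6 weeks, 7 of 11 were above 0, with a median shift of 0.78 beside 1.15 for the panel, and against the panel median 0 of 11 were above 0, with a median of -1.09. From 1 to 6 weeks in P, 10 of 11 were below 0, with a median shift of -1.25 beside -0.50 for the panel and -1.66 for *Il10*. Against the panel median, the list medians were 1.66 in P against sham at 1 week, -1.80 in P+eMSC against P at 1 week and -0.73 from 1 to 6 weeks in P, and without mice 52 and 2356 the last was -1.76. These 3 comparisons all use the P mice of 1 week. In P against sham at 6 weeks 6 of 11 were above 0, with a median shift of 0.28 against 18S, 0.06 without mice 52 and 2356, and 1.10 against the panel median.

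The leukocyte markers *Ccr1*, *Ccr2*, *Ccr7* and *Mrc1* had median shifts of 1.14 in P against sham at 1 week, -0.32 in P+eMSC against P at 1 week and -1.30 from 1 to 6 weeks in P, with none called. Against the panel median these were 1.31, -0.52 and -0.73. Their mean level per mouse ran from -13.89 to -8.76 in P at 1 week, from -14.19 to -7.53 in sham at 1 week, from -14.06 to -9.42 in P+eMSC at 1 week and from -18.50 to -8.97 in P at 6 weeks. The 5 collagens had median shifts of 0.04, 0.35 and -0.51 in the same 3 comparisons, and 0.11, 0.33 and 0.30 against the panel median. The part of these markers in the *Il10* and *Il4ra* values was not tested.

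*Il10* lacked a Ct in 1 mouse each of sham and P at 6 weeks and P+eMSC at 1 week, and *Il4ra* in none. No difference in the share of mice with a Ct passed a test (two-sided Fisher's exact test, lowest p = 0.462).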

How the data were processed

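The authors ran TaqMan qPCR on a Fluidigm array after 14 cycles of preamplification of cDNA from explanted skin. The Ct table used here, which the authors deposited without normalization, holds 54 target genes and 18S, and 999 or an empty cell means no Ct. They also deposited a table of linear fold change ratios against the sham controls. The ratios were used only to check which mouse an *Il10* or *Il4ra* Ct belongs to (matches within 2e-05 log2 for *Il10*, 0.001 for *Il4ra* and 0.01 for mouse 2356). qPCR gives no read depth, and precision rests in part on how many mice each group holds. The median Ct of *Il10* was 22.27, number 6 of the 54 genes from the highest. That of *Il4ra* was 14.92, number 41. The part of low template in the spread of *Il10* was not tested.

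Levels were calculated as 18S Ct minus gene Ct, and undetected values were left out. Groups were taken from the labels. In each of 9 comparisons, genes with at least 4 values per group were compared by a Mann-Whitney U test (exact, two-sided, over all possible rank sums) and Benjamini-Hochberg adjusted over the 54 genes. A gene was called at an adjusted p below 0.05. Sizes are Hodges-Lehmann shifts with exact 95% intervals. Folds against sham are set against the mean level of the sham mice of the week. The 3 interactions used limma 3.58.1 in R 4.3.3. Animal numbers name the mice, and no test was paired, since no number recurs between groups. The tests were checked on simulated data. For each member, the 3 genes with the highest Pearson r were named, and of each gene list those called, otherwise those with the highest and lowest shifts. The members, lists and rules were chosen with earlier results of these data known. The alternatives were the median Ct of the panel in each mouse as the reference (the panel median), other treatments of undetected or high (above 25) Ct values, a permutation test of the mean, limma, permutation within animal numbers below 1000 and above 2000, an unadjusted call and leaving out each mouse. Moving the sham *Il10* values, leaving out mice 52 and 2356 together, and the panel median for the gene lists were added after seeing the data. Calculations used scipy 1.17.1, numpy 2.4.6 and pandas 2.3.3 in Python 3.11.15, and plots used matplotlib 3.10.9.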

Additional observations from a re-analysis of the deposited data

Results flagged for a closer look

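In 2 of the 18 groups of values examined (*Il10*, *Il4ra* and their ratio, in 6 groups of mice), 1 mouse lay further from its group than Dixon's 95% criterion allows, and chance gives about 1 such group in 20. *Il4ra* in sham mouse 401 at 6 weeks was the highest of its group at -5.87, while the other sham mice lay between -8.48 and -7.74. *Il4ra* in P mouse 52 at 6 weeks was the lowest of its group at -16.61. The next P mouse was at -10.52, and mouse 52 lacked a Ct in 31 of the 54 genes and had the highest 18S Ct, 7.79. No cause was tested for either mouse.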

How the results depend on the processing

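Neither gene was called at an adjusted p below 0.05 in any comparison or interaction under any alternative run. The lowest adjusted p was 0.0909, for *Il4ra* in P against sham at 6 weeks without mouse 2356. Several shifts turned sign, some of them over 1 log2 as reported, and the cause was not tested. With the panel median as the reference, the shift was 0.074 for *Il4ra* in P against sham at 1 week, 0.54 (*Il10*) and 0.48 (*Il4ra*) in P against sham at 6 weeks, -0.53 for *Il10* in P+eMSC against sham at 1 week, -0.76 (*Il10*) and -0.63 (*Il4ra*) in P+eMSC against P at 6 weeks, -0.46 (*Il10*) and -0.027 (*Il4ra*) from 1 to 6 weeks in sham, and -0.054 (*Il10*) and -0.042 (*Il4ra*) from 1 to 6 weeks in P+eMSC. The *Il4ra* interaction of week with P against sham became 0.027. Within the animal number series, *Il10* was 0.012 in P against sham and -0.42 in P+eMSC against sham at 6 weeks. For *Il10* in P+eMSC against sham at 1 week the shift was -0.13 with undetected values set below the lowest value. With Ct above 25 treated as undetected, which for *Il10* removed only the value of sham mouse 125, it was -0.18. The *Il10* interaction of week with P+eMSC against sham was 0.93 and 0.22 in these settings. The difference in means of *Il10* in P+eMSC against sham at 6 weeks was -0.056, in the permutation test and in limma.

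Leaving out 1 mouse at a time turned the sign of 10 results. For *Il10* the ranges were -1.46 to 0.15 in P against sham at 6 weeks, -0.18 to 1.19 and -0.74 to 0.45 in P+eMSC against sham at 1 and 6 weeks, -0.32 to 1.21 from 1 to 6 weeks in P+eMSC, and -1.09 to 0.39 in the interaction of week with P+eMSC against sham. For *Il4ra* they were -0.31 to 0.34 in P against sham at 1 week, -0.91 to 0.12 and -0.23 to 0.42 in P+eMSC against sham at 1 and 6 weeks, -0.65 to 0.21 in P+eMSC against P at 1 week, and -0.84 to 0.20 from 1 to 6 weeks in P. Moving the sham *Il10* values by 1 column turned none of 7 results, and leaving out mice 52 and 2356 together none of 6. The number of panel genes called in P against sham at 6 weeks was 2, and 0 with the panel median, 0 in limma and 12 without adjustment. Without adjustment it went from 0 to 10 in P+eMSC against P at 6 weeks, and from 0 to 2 in P against sham at 1 week and in 6 weeks against 1 week in sham. *Gapdh* as the reference was not run, as no *Gapdh* Ct was used here.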
